A study of Homo sapiens with 2 samples.

Results

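Genes that write or erase histone methylation were looked up among the ChIP-seq peaks of MHCC-97H cells that overexpressed HA-RFX6. MHCC-97H is an established human hepatocellular carcinoma (HCC) cell line. RFX6 belongs to the regulatory factor X family of transcription factors, which bind a palindromic DNA element called the X-box. The cells carried an RFX6 plasmid with an HA tag, chromatin was precipitated with an anti-HA antibody, and 1 such ChIP library gave the list. An input library (n = 1) of the same cell line has no peak list used here. There were no replicates, no precipitation without the tagged protein was analysed, and the read depth behind each peak is unknown. The rule for members used gene symbols and no value of the peak list, but it was set with earlier results of these data known. The members comprised the protein-coding genes whose symbols start with KMT2, KMT5, KDM and a digit, SETD, SUV39H, EHMT or NSD and a digit, together with EZH1, EZH2, EED, SUZ12, DOT1L and JMJD6. This rule found 53 of 20037 protein-coding genes, of which 32 carry names of writers or their subunits and 21 names of erasers. Among these, SETDB2-PHF11 is a readthrough gene that shares its start with SETDB2.

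Histone methyltransferases place methyl groups on lysines of the histone tails, and demethylases remove them. Methylation of histone H3 at lysine 4 marks starts and enhancers of active genes, whereas the mark at lysine 27, placed by Polycomb repressive complex 2 (PRC2), and the mark at lysine 9 go with silent chromatin. Several of these enzymes are mutated or overexpressed in tumours, and EZH2 is well known for its high expression in HCC. The groups follow names, and not all members act on histones. SETD3 methylates a histidine of actin, and KMT2E has a SET domain without known methyltransferase activity.

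Positions are given on GRCh38, which the peak coordinates fitted at gene starts, although the submitters' notes name GRCh37. An interval, meaning a distinct peak of the list, was counted at a gene end when its midpoint lay within 1 kb of either end of the gene. By this rule 19 of the 53 members had an interval (35.8%, 95% Wilson interval 24.3% to 49.3%), beside 15.5% of all protein-coding genes. When intervals inside the gene body were added, 24 members had one (45.3%, 32.7% to 58.5%), beside 19.5% of all protein-coding genes. Without the readthrough gene the counts were 18 and 23 of 52. Wilson intervals here cover the counting of genes only, and with 1 library no test of the difference was made. Of the 13 members longer than 100 kb, 6 had an interval at an end or in the body (46.2%), beside 21.5% of all genes of that length. From 20 to 100 kb it was 15 of 31 members (48.4%), beside 23.2%, and below 20 kb it was 3 of 9 (33.3%), beside 15.7%. The members had a median length of 58786 bp against 24115 bp for all coding genes, and their share was numerically above that of all genes in each length class. The Wilson intervals were wide, at 23.2% to 70.9% over 100 kb, 32.0% to 65.2% from 20 to 100 kb and 12.1% to 64.6% below 20 kb. The last of these includes the 15.7% of all genes.

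**Figure D1:**
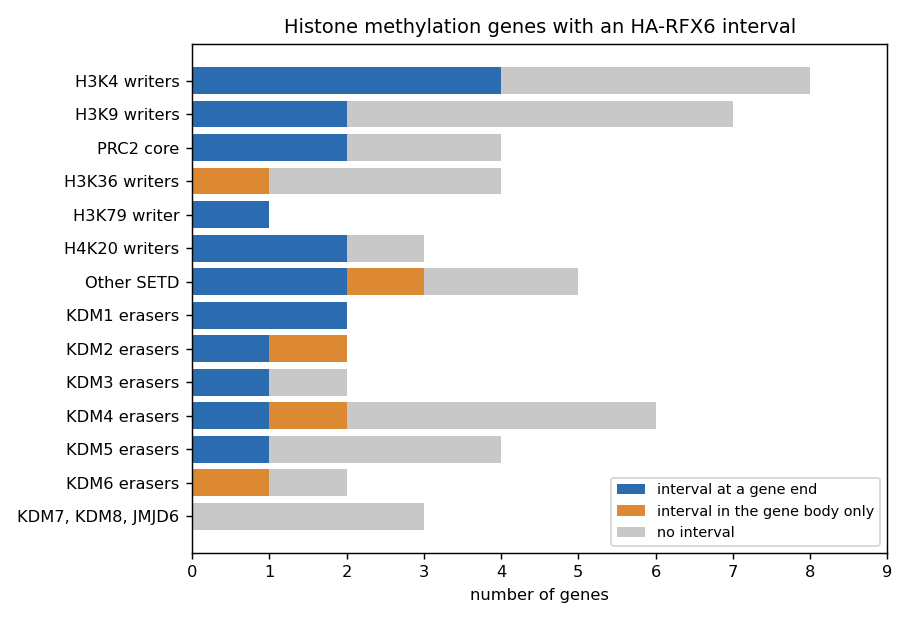
Number of genes (horizontal axis) in each role group of the 53 members, divided into those with an HA-RFX6 interval at a gene end, in the gene body only, or neither. All KDM1 genes had an interval at an end, whereas none of the 3 genes KDM7A, KDM8 and JMJD6 had an interval.

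Starts of transcription were then taken from a RefSeq promoter table (GRCh38.p14), which matched 48 of the 53 members. No entry was matched for NSD3, KDM4E, SETD1B, JMJD6 and DOT1L. An interval midpoint lay within 1 kb of a listed start for 19 of the 48 members (39.6%, 27.0% to 53.7%), beside 16.3% of all protein-coding genes with a listed start. Of these 19 members, 17 also had an interval at a gene end, and the other ones, NSD1 and SETD3, had it at a start that lies inside the gene. A total of 21 intervals were involved. Their midpoints were at a median distance of 139 bp from the nearest listed start, compared with 168 bp for all 2696 intervals near a start. Of the 21 intervals, 16 had a midpoint within 250 bp of the start and 11 spanned it. The midpoint lay before the start in 13, after it in 7 and on the start base at KDM1A.

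**Figure D2:**
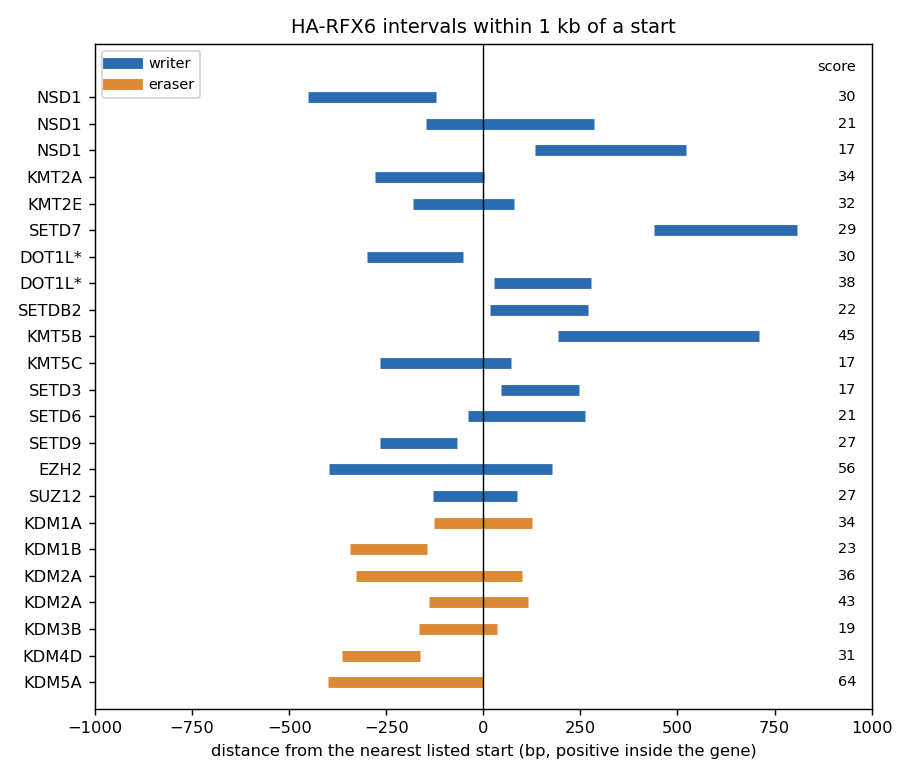
HA-RFX6 intervals at members, drawn from first to last base against the nearest listed start (horizontal axis in bp, positive inside the gene), with the score of each interval at the right. DOT1L is marked with an asterisk and drawn from its low-coordinate end. Most bars touch or lie close to the line at 0, and the bars of SETD7 and KMT5B lie farthest inside their genes.

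The bases before the start that lay inside an interval are shown for 8 members, chosen to cover the PRC2 core, the H3K4 and H4K20 writers and the erasers, all without another coding gene over these bases. They are given 5′ to 3′ on the strand of the gene, end at the base just before the listed start, and come from the RefSeq promoter table. Capitals mark matches, on either strand, to the GC box GGGCGG, the CCAAT box, the X-box arms GTTGCC and GTTACC, the ETS core CCGGAA and the E-box CACGTG. The stretch of EZH2, on the minus strand at chr7:148884292-148884541, is followed by SUZ12 at chr17:31936877-31937006, KMT2A at chr11:118436242-118436491, KMT2E at chr7:105014024-105014204, KMT5C at chr19:55339626-55339875, KDM1A at chr1:23019343-23019467 and KDM3B at chr5:138352520-138352684. KDM2A has an outer start, shown at chr11:67119013-67119262, and a start deep inside the gene, shown at chr11:67239875-67240013.
EZH2: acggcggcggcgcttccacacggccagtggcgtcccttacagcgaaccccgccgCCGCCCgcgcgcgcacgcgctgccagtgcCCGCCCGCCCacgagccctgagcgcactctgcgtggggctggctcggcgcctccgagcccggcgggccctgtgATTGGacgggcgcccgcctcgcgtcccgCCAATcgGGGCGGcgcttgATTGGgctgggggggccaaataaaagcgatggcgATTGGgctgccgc
SUZ12: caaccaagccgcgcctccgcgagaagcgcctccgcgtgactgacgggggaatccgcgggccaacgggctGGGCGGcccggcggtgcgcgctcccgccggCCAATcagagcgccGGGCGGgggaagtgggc
KMT2A: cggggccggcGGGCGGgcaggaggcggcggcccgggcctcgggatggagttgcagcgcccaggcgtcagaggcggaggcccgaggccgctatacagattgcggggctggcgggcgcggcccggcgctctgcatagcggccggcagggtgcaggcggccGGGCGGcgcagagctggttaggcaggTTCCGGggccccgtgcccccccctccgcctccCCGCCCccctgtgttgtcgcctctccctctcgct
KMT2E: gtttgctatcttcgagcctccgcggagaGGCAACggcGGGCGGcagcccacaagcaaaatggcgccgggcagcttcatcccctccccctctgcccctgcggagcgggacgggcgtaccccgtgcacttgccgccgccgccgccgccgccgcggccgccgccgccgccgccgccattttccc
KMT5C: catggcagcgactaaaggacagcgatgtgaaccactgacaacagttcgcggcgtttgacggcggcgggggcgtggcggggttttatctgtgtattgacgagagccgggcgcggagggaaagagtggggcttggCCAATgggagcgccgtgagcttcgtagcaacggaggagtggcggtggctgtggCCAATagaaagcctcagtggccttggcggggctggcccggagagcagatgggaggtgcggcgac
KDM1A: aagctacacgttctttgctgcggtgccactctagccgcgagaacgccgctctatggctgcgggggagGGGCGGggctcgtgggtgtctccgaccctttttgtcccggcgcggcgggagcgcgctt
KDM3B: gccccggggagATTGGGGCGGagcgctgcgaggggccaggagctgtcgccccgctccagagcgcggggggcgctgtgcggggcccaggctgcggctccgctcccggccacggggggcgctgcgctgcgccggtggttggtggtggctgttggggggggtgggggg
KDM2A outer: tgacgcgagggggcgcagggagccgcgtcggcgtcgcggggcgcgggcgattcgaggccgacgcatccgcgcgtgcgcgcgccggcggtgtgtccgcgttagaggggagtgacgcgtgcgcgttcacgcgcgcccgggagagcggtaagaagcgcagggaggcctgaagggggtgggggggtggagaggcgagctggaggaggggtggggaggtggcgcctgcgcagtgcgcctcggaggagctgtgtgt
KDM2A inner: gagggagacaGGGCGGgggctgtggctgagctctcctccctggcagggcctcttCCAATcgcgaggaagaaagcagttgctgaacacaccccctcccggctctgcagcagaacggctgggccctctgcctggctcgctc
In KDM3B the CCAAT box, read on the minus strand, and the GC box share a base. The outer KDM2A stretch, with a GC content of 75.2% and 40 CpG dinucleotides, held none of the 6 motifs.

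To describe these windows as a group, the 300 bases from 250 before to 50 after the first listed start were scored. With the readthrough gene not counted, this left 17 members with an interval at that start and 30 without. NSD1 was among the 30, because its intervals lay at its other listed starts. The GC box was found in 14 of the 17 windows (82.4%), in 21 of the 30, in 79.8% of all coding promoters with an interval and in 58.5% of all coding promoters. The CCAAT box was in 8 of the 17 (47.1%) and 9 of the 30, beside 36.9% of all coding promoters with an interval and 36.4% of all. Of the X-box arms, GTTGCC was found in 1 of the 17 windows (5.88%), that of KMT2E, and in 5 of the 30. It was in 12.1% of all coding promoters with an interval and in 12.6% of all. GTTACC was in 2 of the 17 (11.8%), those of KDM5A and SETD6, and in 2 of the 30. It was in 4.79% of all coding promoters with an interval and in 5.92% of all. These counts leave out windows at other listed starts, where GTTACC was also found at NSD1 and SETD9. The match at NSD1 lay inside an interval. At KDM5A and SETD6, the bases before the start that lay inside the interval held no GTTACC. The ETS core was in 4 of the 17 (23.5%) and 8 of the 30, beside 30.9% of all coding promoters with an interval and 22.9% of all. For the E-box it was 1 of the 17 (5.88%) and 7 of the 30, beside 11.3% and 8.88%. The median GC content was 69.3% with and 65.0% without an interval, while it was 68.7% for all coding promoters with an interval and 62.7% for all coding promoters. These matches are a description of the letters in the window, and binding at them was not measured.

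**Figure D3:**
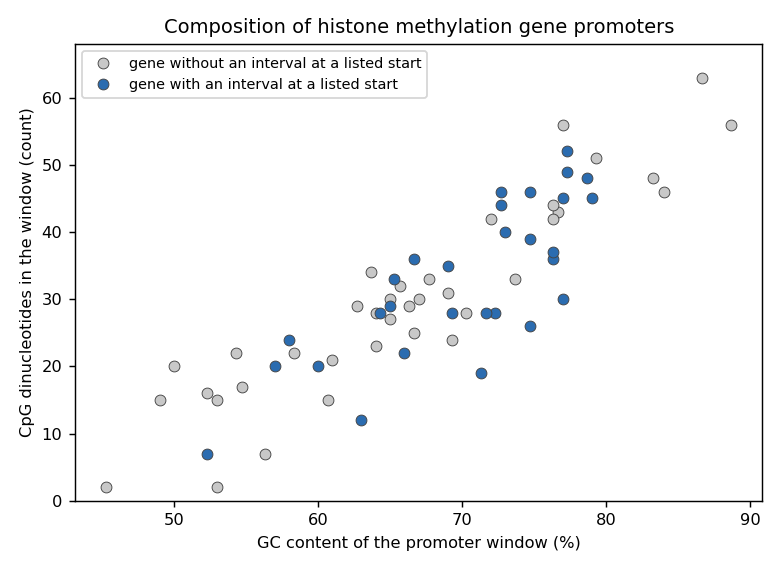
GC content (horizontal axis, %) and number of CpG dinucleotides (vertical axis, count) of each 300-base promoter window of the members, where a gene with several listed starts gives several points. Windows of genes with and without an interval at a listed start overlap over most of the range.

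In the group of H3K4 writers, which holds KMT2E by its name, 4 of 8 genes had an interval at an end. KMT2A, which forms a COMPASS-like complex with menin and is rearranged in leukaemia, had an interval of 279 bp at chr11:118436214-118436492. It had a score of 34, a whole number given by the authors whose meaning is not stated. Scores were used to rank and summarise the intervals, as cutoffs, and to choose among lines with identical positions. The score of 34 exceeded that of 60.2% of the 5019 intervals. At KMT2E, an interval of 261 bp at chr7:105014024-105014284 was listed on 2 lines with a score of 32 each, and it also overlapped the antisense transcript KMT2E-AS1. The SETD7 interval at chr4:139555412-139555780 scored 29 and lay inside the gene with its midpoint 623 bp after the start. SETD7 adds a single methyl group to H3K4 and to many other proteins. SETD1A, a COMPASS methyltransferase, was an exception in position. Its interval at chr16:30985206-30985483 scored 34 and lay 680 bp beyond the far end of the gene and 27590 bp from its start. An end of HSD3B7 was also within 1 kb of it. KMT2B, KMT2C, KMT2D and SETD1B had no interval.

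For KMT2C the nearest interval was 2365 bp away from the gene, with a width of 1895 bp but a score of only 19. KMT2D and SETD1B were 9005 bp and 6759 bp away from theirs. Of these genes, KMT2C alone gained an interval when the window was widened to 5 kb.

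Of the 4 PRC2 core genes among the members, EZH2 and SUZ12 had an interval at their start, whereas EZH1 and EED had none. EZH2 is the catalytic subunit, and its interval was the widest among all the intervals at member ends. This interval of 574 bp, chr7:148884116-148884689, was listed on 2 lines with scores of 39 and 56. The higher score exceeded that of 90.7% of all intervals. At SUZ12, which holds the complex together, an interval of 217 bp at chr17:31936877-31937093 scored 27, higher than 34.0% of intervals. Its midpoint was 22 bp before the start. EZH1, the other catalytic subunit, was 20446 bp from the nearest interval, and EED, which binds the finished mark, was 384263 bp from it.

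Among the 7 H3K9 writers, SETDB2 and the readthrough gene that shares its start had an interval. It was at chr13:49444291-49444544, scored 22, and an end of CAB39L was within 1 kb. SUV39H1, SUV39H2, EHMT1, EHMT2 and SETDB1 had none. On the X chromosome, where SUV39H1, KDM5C and KDM6A are located, 2.95% of all coding genes had an interval at an end, and no interval lay on the Y chromosome, where KDM5D is located. Without the X and Y chromosomes, 19 of 49 members (38.8%) had an interval at an end, beside 16.1% of all genes on the other chromosomes.

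Among the H3K36 writers, NSD1 alone had intervals. This gene, which is mutated in Sotos overgrowth syndrome, has 5 listed starts. Its 3 intervals followed each other, chr5:177133149-177133477 scoring 30, chr5:177133625-177134057 with scores of 13 and 21 on its lines, and chr5:177134270-177134658 scoring 17. All were more than 1 kb from the gene end, at 1515, 2043 and 2666 bp, but their midpoints were 287 bp before, 68 bp after and 328 bp after a listed start. SETD2, NSD2 and NSD3 had no interval, the nearest ones being 17800, 553852 and 38008 bp away.

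DOT1L, the only H3K79 methyltransferase, had 3 intervals. A pair flanked its low-coordinate end, chr19:2163633-2163879 (score 30) and chr19:2163962-2164210 (score 38), their midpoints being 177 bp outside and 153 bp inside the gene. An end of AP3D1 was also within 1 kb of this pair. The third interval, chr19:2173569-2173852 (score 23), lay 9777 bp inside the gene. Of the H4K20 writers, KMT5B and KMT5C had an interval and KMT5A, which places the first methyl group, did not. The KMT5B interval, at chr11:68212586-68213103, was 518 bp wide with scores of 45 and 33. Its midpoint was 804 bp inside the gene end and 452 bp after the nearest of 3 listed starts. At KMT5C the interval at chr19:55339610-55339946 had a score of 17, higher than that of only 6.81% of intervals, although it spanned the start.

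The remaining SETD genes were SETD3, SETD4, SETD5, SETD6 and SETD9. At SETD6, which methylates the RELA subunit of NF-κB, the interval at chr16:58515479-58515780 (score 21) began at the first base of the gene, which also lies within 1 kb of an end of NDRG4. SETD9 had an interval of 200 bp at chr5:56909791-56909990 (score 27 on 2 lines), 630 bp from the gene end but 167 bp before 1 of its 4 listed starts. At SETD3 the interval at chr14:99480614-99480813 (score 17) was 5745 bp inside the gene end and 146 bp after the listed start, and an end of CCNK was within 1 kb. SETD4 and SETD5 had none.

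The flavin-dependent demethylases KDM1A and KDM1B both had an interval at the start. KDM1A, also called LSD1, removes methyl groups from H3K4 within the CoREST complex. Its interval of 252 bp at chr1:23019343-23019594 scored 34 and was centred on the start. The KDM1B interval at chr6:18155079-18155278 scored 23 and lay outside the gene with its midpoint 244 bp before the start. It was also within 1 kb of an end of TPMT.

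KDM2A and KDM2B, which bind unmethylated CpG islands through a CXXC zinc finger and demethylate H3K36, differed in where their intervals lay. KDM2A had 1 interval at each of its listed starts. The outer one, chr11:67118937-67119362, had scores of 36 and 35 and a midpoint 114 bp before the start. The inner one, chr11:67239875-67240128, scored 43, lay 18081 bp from the gene end, and had its midpoint 13 bp before the second listed start. KDM2B also had 2 intervals, chr12:121521107-121521395 (score 32) and chr12:121537358-121537582 (score 39), but the nearest of its 4 listed starts was 53873 and 42189 bp away. The tables used hold no exons, so intervals in a body were not placed in exons or introns.

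Of the other jumonji demethylases, KDM3B had an interval of 200 bp at its start (chr5:138352520-138352719, score 19), whereas KDM3A had none and was 415320 bp from the nearest. KDM3B removes methyl groups from H3K9. Among the 6 KDM4 genes, KDM4D had an interval at chr11:94973347-94973546 (score 31), 263 bp before its start and within 1 kb of an end of CWC15. KDM4B, which acts on trimethylated H3K9, had a pair of intervals deep in its body, chr19:5047495-5047700 (score 22) and chr19:5047776-5048034 (score 27), at 78484 and 78792 bp from the start. KDM4A, KDM4C, KDM4E and KDM4F had none.

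KDM5A, which removes H3K4 trimethylation, carried the highest score of all the member intervals. Its interval of 400 bp at chr12:389321-389720 scored 64, higher than that of 95.4% of intervals, and ranked 218 of 5019. It began at the base next to the start of KDM5A and overlapped CCDC77, an end of which was also within 1 kb. KDM5B, KDM5C and KDM5D had none, and for KDM5B the nearest interval was 2570 bp away. KDM6B, which removes H3K27 trimethylation, had 3 intervals in its body on chromosome 17, at 1225, 7676 and 10458 bp from its outer start, with scores of 22, 17 and 37. The first of these lay just outside the 1 kb window, and the first and the last were within 1 kb of an end of LOC124904106, another coding gene. KDM6A had no interval.

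**Figure D4:**
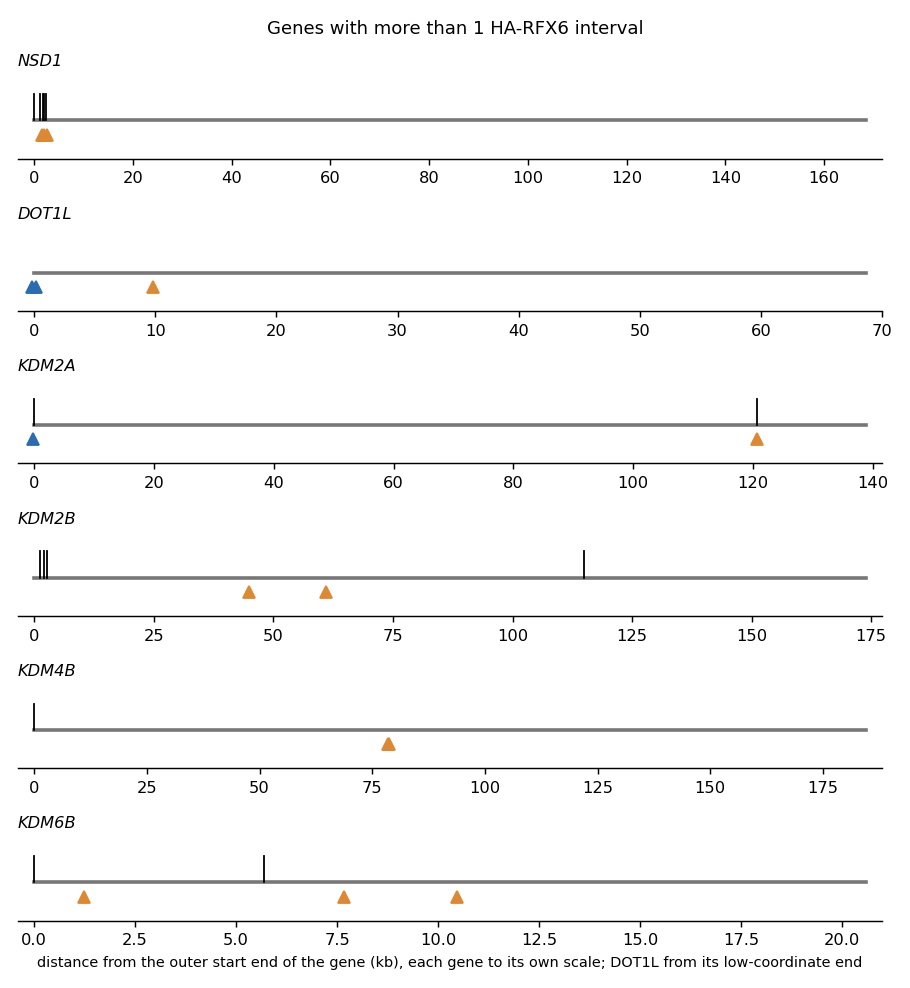
Position of HA-RFX6 intervals (triangles) along the 6 members with more than 1 interval, in kb from the outer start end of each gene (DOT1L from its low-coordinate end), each to its own scale. Blue triangles are within 1 kb of a gene end, orange ones are not, and vertical ticks are listed starts. Those of NSD1 and KDM2A lie at ticks, whereas those of KDM2B and KDM4B do not.

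In all, 32 distinct intervals were found at the members, of which 19 were at a gene end and 13 elsewhere. The 19 had a median score of 31, with quartiles of 25 and 35 and a range from 17 to 64, and all 3054 intervals at coding gene ends had a median of 32. The quartiles of the latter were 25 and 43, and they ran from 13 to 126. A score of at least 30 was reached by 11 of the 19 (57.9%), beside 57.1% of the 3054. The median and lower quartile were thus close, whereas the upper quartile was lower for the members, of which there were only 19 intervals. The highest scores cannot be compared, because a set of 19 is expected to reach less far than one of 3054. The 13 elsewhere had a median of 23 and a highest score of 43. Of the 19 intervals, 8 (42.1%) were also within 1 kb of an end of another coding gene, beside 18.1% of the 3054, with SETDB2-PHF11 not counted. These were at DOT1L (2 intervals), KDM1B, KDM4D, KDM5A, SETD1A, SETD6 and SETDB2, and the list alone cannot tell which gene of each pair an interval belongs to. More than 1 interval was found at 6 members (11.3%), compared with 4.42% of all coding genes. This comparison was not split by gene length, and the members were longer (median 58786 bp against 24115 bp). Merging intervals closer than 1 kb left NSD1 and KDM4B with 1 each.

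**Figure D5:**
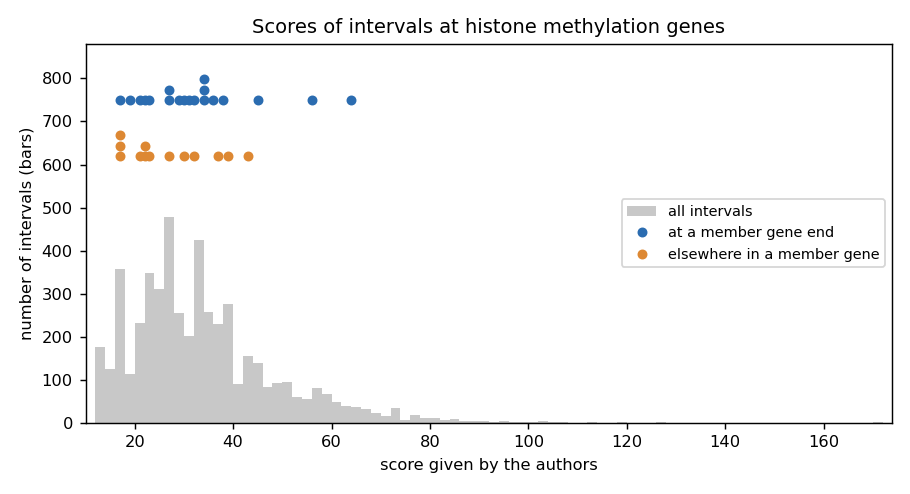
Number of all 5019 intervals by score (bars, vertical axis) with the scores of the member intervals as points above, blue for those at a member gene end and orange for those elsewhere in a member gene. The height of the points carries no value. The points at gene ends run from 17 to 64, and the member intervals elsewhere stop at 43.

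The 29 members without an interval were at different distances from the list. For 28 of them, all but KDM5D, the gap to the nearest interval had a median of 49302 bp and ranged from 2365 to 3907023 bp. It was below 10 kb for 5 members, namely KMT2C, KDM5B, EHMT2, SETD1B and KMT2D, and above 100 kb for 9. The longest gaps were those of KDM5C, KDM6A, KDM8 and SUV39H2.

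Finally, a list of 73 genes was examined that holds subunits and partners of these enzymes and other lysine and arginine methylation families. An interval at a gene end was found for 16 of them (21.9%, 14.0% to 32.7%), beside the 15.5% of all coding genes. Of 15 COMPASS subunits and partners, WDR5, NCOA6 and HCFC1 had one, and those of NCOA6 and HCFC1 scored 25 and 17. WDR5, the shared scaffold of COMPASS complexes, had a score of 34 with a midpoint 830 bp from the gene end. In the LSD1/CoREST group, RCOR1 and HDAC2 were among those with one. That of RCOR1 scored 17 and that of HDAC2, a histone deacetylase, scored 59. With scores of at least 20, HCFC1 and RCOR1 lost theirs. Of the 4 DOT1L partners listed, MLLT1, MLLT3 and MLLT6 had one, with highest scores of 25, 27 and 43, and MLLT10 did not. CBX5, which encodes a heterochromatin protein that binds methylated H3K9, had 2 intervals with scores of 51 and 25 and was the only one of 11 genes of its group. Among 10 further PRC2 genes, which include the subunit genes RBBP4 and RBBP7, LCOR alone had one (score 22). In the remaining families 5 of 22 genes had one, namely ASH1L, JMJD1C, PHF2, PRMT2 and RIOX1. The RIOX1 interval had the highest score among the partner intervals at gene ends, 65. For comparison, intervals at a gene end were found for 3 of 8 lysine acetyltransferase genes with a KAT symbol and for 1 of 11 CHD chromatin remodeler genes. With gene bodies added the counts were 3 of 8 and 4 of 11, and at a listed start they were 2 of 6 and 3 of 7. These families are too small for a comparison, as the Wilson intervals at gene ends ran from 13.7% to 69.4% and from 1.62% to 37.7%.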

How the data were processed

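Chromatin was fixed with formaldehyde, sonicated and precipitated with an anti-HA antibody. The authors called peaks with MACS2 2.1.0.2 and deposited a list without a header that gives a chromosome, start, end, name and whole-number score for each peak. What the score stands for, the aligner and the control used in calling are not given in the sources used here. The submitters' processing notes name GRCh37. The coordinates were read as GRCh38, since 2696 of 4866 intervals (55.4%) on the chromosomes with listed starts had a midpoint within 1 kb of a GRCh38.p14 coding gene start.

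Of 6214 lines, 1 with digit separators was rejoined, identical positions were counted once with their highest score (5022 intervals), and the 3 mitochondrial ones were set aside, which left 5019. Starts were taken as 0-based and are given 1-based. Genes came from RefSeq tables of GRCh38.p14. An interval was in a body when at least 1 bp overlapped the gene. Every member with an interval was named, and of the partner genes those with an interval at a gene end, except for an item that is not reported here. The members and lists were chosen with earlier results of these data known. With 1 library no test was made, and alternatives were a higher score, merging, other windows, any overlap, the nearest gene end and leaving out the X and Y chromosomes. The look-up was tested on simulated data. Python 3.11.15, numpy 2.4.6, pandas 2.3.3, scipy 1.17.1 and matplotlib 3.10.9 were used.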

Additional observations from a re-analysis of the deposited data

How the results depend on the processing

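With scores of at least 30, members with an interval at a gene end fell from 19 to 10 (18.9%, beside 9.5% of all coding genes), those with an interval at an end or in the body from 24 to 13 (24.5%, beside 12.0%), those with an interval at a listed start from 19 to 9 (18.8%, beside 9.9%), and partner genes from 16 to 9 (12.3%, beside 9.5%). Fewer intervals enter these counts by construction. SUZ12, KDM1B, KDM3B, KMT5C, SETD6, SETD7, SETD9 and SETDB2 lost their interval at an end, whereas EZH2, KDM5A, KDM1A, KDM2A, KMT2A and KMT2E kept it. The other alternatives left the counts at gene ends, at ends or in bodies, and of partner genes within 1.5 times their values. Some of them moved the number of intervals at single members. Apart from the higher score, the count at listed starts was repeated only with windows of 2 kb and 250 bp. Within 2 kb it was 20 members (41.7%, beside 17.2% of all coding genes with a listed start). Within 250 bp it was 16 members (33.3%, beside 11.8%). Both counts were within 1.5 times the 19 members found within 1 kb. Merging intervals closer than 1 kb left 1 at NSD1, 1 at KDM4B and 2 at DOT1L. When an interval was given only to the coding gene with the nearest end, 15 members (28.3%, beside 13.4%) had one at an end, and KDM1B, KDM4D, KDM5A and SETD1A lost theirs. Counting bodies too, KDM6B and SETD3 were also left with 0 and DOT1L with 2. Within 5 kb of an end it was 24 members (45.3%, beside 19.8%). Counting bodies too, this window gave 5 intervals at DOT1L, 4 at NSD1 and 2 each at KMT2A and SETD1A. With scores of at least 20, KDM3B, KMT5C and SETD3 had 0 and NSD1 and KDM6B had 2.

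No paired analysis was possible because the series has a single ChIP library without replicates, and for this reason no setting left out a replicate. The read depth is unknown, and a gene without an interval is not shown to be unbound.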
